A study of Mus musculus with 4 samples.

Results

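Kupffer cells, the macrophages that live in the liver sinusoids, were followed through 10 genes of the 54464 in the deposited count table. The genes were chosen by name: Clec4f, Vsig4, Timd4, Cd5l and Marco for the resident cell, Adgre1, Csf1r and Mertk for macrophages in general, and Gpnmb and Trem2 for the lipid-handling and repair state of recruited macrophages. All 10 were in the table. They were described across the deposited cell type names and by genotype, with the share of nuclei that held a unique molecular identifier (UMI) of the gene in each mouse.

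Liver nuclei came from 3 WT mice and from 3 HNKO mice, in which Nampt, an enzyme of NAD synthesis, was deleted in hepatocytes. All 6 were adult female C57BL6/BomTac mice that carried floxed Nampt and were fed a purified control diet, and the HNKO mice also carried Alb-Cre, whose albumin promoter is active in hepatocytes. Each mouse is 1 animal and was identified by its hashtag inside pools that held all 6. The table held 5193 nuclei, of which 80 were named Kupfer (the spelling of the table), 105 CD45+ 1, 47 CD45+ 2, 25 CD45+ 3, 245 endothelial, 171 stellate, 110 cholangiocyte and 4410 hepatocyte.

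In mouse liver, resident Kupffer cells are seeded before birth, renew themselves locally and clear particles, bacteria and aged red cells from portal blood. When they are lost or the liver is injured, monocytes enter from the blood, take up the macrophage programme first, and acquire the resident genes, Timd4 among the last, over time. Around dying hepatocytes and scars, some recruited macrophages carry a lipid-handling programme with Gpnmb and Trem2.

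The hashtag counts limit what can be said per mouse. The mouse's own hashtag was the largest of the 6 in 5103 of 5193 nuclei, but in 15 of 25 Kupfer nuclei and 16 of 25 CD45+ 1 nuclei assigned to HNKO 3. In the other 10 Kupfer and 9 CD45+ 1 nuclei of HNKO 3, the HNKO 1 hashtag was the largest. Own hashtags made up at least 50% of hashtag counts in 28 of 29 Kupfer nuclei of HNKO 1, 1 of 10 of HNKO 2, 0 of 25 of HNKO 3, and 3 of 6, 2 of 6 and 3 of 4 in WT 1, 2 and 3. Values per mouse follow the deposited assignment, and are given without the doubtful nuclei where these move them. No barcode was shared between nuclei, and each mouse gave 629 to 1063 nuclei and about 3766530 to 7763270 UMIs.

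Nuclei of the Kupfer name carried the markers of the cell. All 12 macrophage markers were detected, at a summed 9263 CPM (UMIs of the genes per 1000000 UMIs of the same nuclei) against 1705 CPM in CD45+ 1, where all 12 were also detected. Of the T cell markers 1 of 6 was detected in Kupfer nuclei. Of the 7 dendritic markers, Flt3, Xcr1, Cd209a, Siglech and Ccr7 were at 0 there, which does not cover the rest of that list. CD45+ 1 held all 7 dendritic markers, at 1001 CPM. It was therefore a mixed population by these markers, and it is called by its table name. Hepatocyte markers were detected in both, at a summed 3370 CPM in Kupfer and 6361 CPM in CD45+ 1 nuclei.

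The promoters of the members are shown first because PU.1, the transcription factor that macrophages depend on, binds a purine-rich box. Windows of 250 bases before the gene start were held for 8 of 10 members in the RefSeq table (GRCm38.p6), with none for Adgre1 and Csf1r. The letters GAGGAA, sought on both strands, were found in 4 of the 8 windows, those of Vsig4, Cd5l, Marco and Trem2, and in 23.3% of 32851 windows of all genes. Vsig4, at chrX:96293439-96293688 on the minus strand, held the box at bases -155 and -53 from the start. Cd5l, at chr3:87357631-87357880 on the plus strand, held it at base -66 on the other strand, where it reads TTCCTC. Both are printed 5′ to 3′ with the box in capitals, as the pair of members whose RNA was detected in most Kupfer nuclei among the 4.
Vsig4: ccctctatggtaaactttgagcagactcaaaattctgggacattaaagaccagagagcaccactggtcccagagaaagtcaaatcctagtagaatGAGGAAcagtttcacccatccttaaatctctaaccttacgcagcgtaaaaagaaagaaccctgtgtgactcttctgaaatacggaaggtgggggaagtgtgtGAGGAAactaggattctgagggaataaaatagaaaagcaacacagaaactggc
Cd5l: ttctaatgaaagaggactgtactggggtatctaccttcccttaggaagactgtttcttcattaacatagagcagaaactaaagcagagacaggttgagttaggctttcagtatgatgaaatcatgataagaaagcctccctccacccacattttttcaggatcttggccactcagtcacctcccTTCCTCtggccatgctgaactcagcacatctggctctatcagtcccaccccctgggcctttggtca
The MAF core TGCTGAC, sought in the same way, was found in the window of Timd4 alone and in 3.81% of all windows. The letters TCATGTG, the core of the M box read by MITF and TFE factors, and TCACGTG, an E box core, were in none of the 8 windows, against 3.25% and 3.13% of all windows. Each match is a match of letters, and no binding was measured.

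Most members fell into 3 patterns over the cell type names, with Marco and Trem2 too low to place. Clec4f, Vsig4, Timd4 and Cd5l were detected in most Kupfer nuclei and in few others. Adgre1 and Csf1r were shared by Kupfer and CD45+ 1 nuclei, with Csf1r also in cholangiocyte nuclei. Mertk extended to endothelial cells, stellate cells and hepatocytes. Gpnmb was in CD45+ 1 nuclei and in no Kupfer nucleus. Clusters were made by the authors from the same genes, so these differences between names are a description and were not tested. CPM is not scaled to gene length, so levels are compared for the same gene across cells and not between genes.

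**Figure D1:**
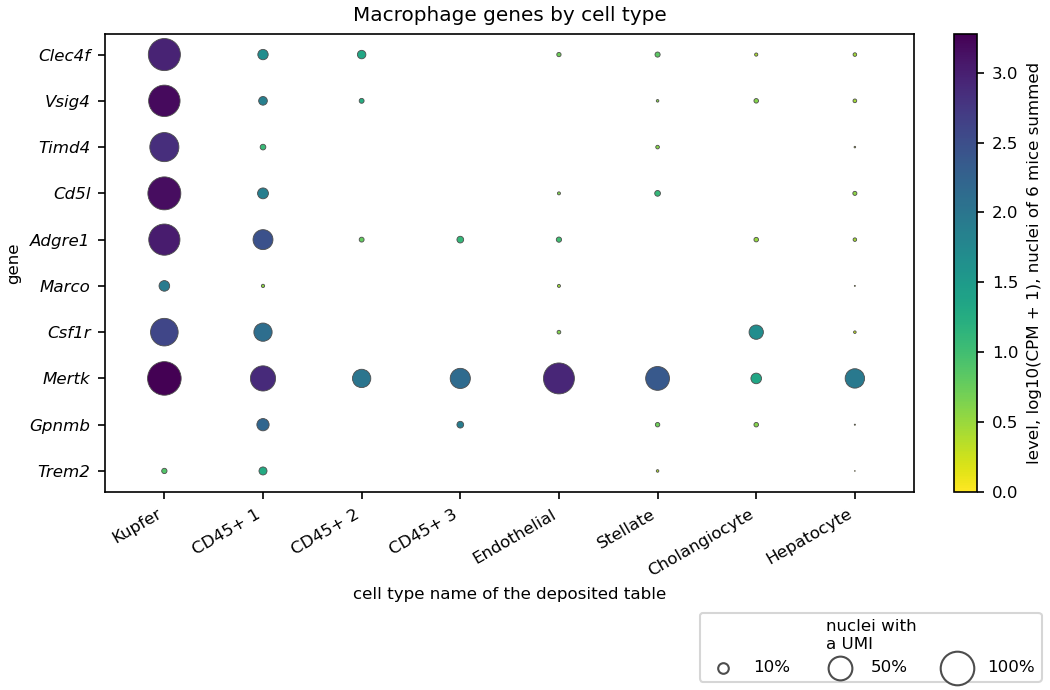
Each circle stands for 1 of the 10 genes (rows) in the nuclei of 1 cell type name (columns), all 6 mice summed. Circle area gives the share of nuclei with a UMI and colour the level as log10(CPM + 1), and the Gpnmb row is empty under Kupfer, where 0 of 80 nuclei held a UMI.

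Clec4f, a galactose-binding C-type lectin made by Kupffer cells in rodents (chromosome 6, 83644542 to 83656187, minus strand, GRCm38), had 365 UMIs in all nuclei, of which 76.2% were in Kupfer nuclei. Its level was 928 CPM in Kupfer, 47.7 in CD45+ 1, 20.3 in CD45+ 2, 5.78 in stellate, 4.23 in endothelial, 1.86 in hepatocyte and 1.51 CPM in cholangiocyte nuclei. It was detected in 73 of 80 Kupfer nuclei (91.3%, 95% Clopper-Pearson interval 82.8 to 96.4%), at a median depth of 3087.5 UMIs. Hepatocytes, which should lack it, showed a UMI in 1.16% of nuclei at a median depth of 4484 UMIs, which was taken as the background level for the other shares. Free RNA, doublets and misnamed nuclei were not separated in it, since no doublet caller was run. The 10 Clec4f-positive CD45+ 1 nuclei (9.52%) lay above that level, and all were of HNKO mice, 6, 2 and 2 in HNKO 1, 2 and 3. The 14 CD45+ 1 nuclei of WT mice were at 0. A limit of 3 counts over the number of nuclei, which is rough for so few, was 60% in WT 1 and WT 2 and 75% in WT 3. A difference was therefore not detectable at this depth. Intervals and these limits cover counting error only.

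In Kupfer nuclei, the Clec4f level was 1016, 471 and 1013 CPM in WT 1, 2 and 3, and 970, 1078 and 947 CPM in HNKO 1, 2 and 3. WT 2 was the lowest mouse and the groups overlapped. The WT values rest on 13 to 21 UMIs in 4 to 6 nuclei, against 40 to 100 UMIs in the HNKO mice. HNKO over WT, this was a log2 fold change of 0.28 (SE 0.31, edgeR quasi-likelihood test, Benjamini-Hochberg FDR 0.96). The share of Kupfer nuclei with a UMI was 83.3, 83.3 and 75.0% in WT mice and 93.1, 90.0 and 96.0% in HNKO mice, so every HNKO mouse was above every WT mouse, as for 1.56% of the 705 genes tested in these nuclei. The means differed by 12.5 percentage points, and by 8.51 points after thinning each nucleus to 1000 UMIs, where the groups still did not overlap. With at least 1.5 UMIs required they overlapped, at 66.7, 50 and 75.0% in WT mice and 72.4, 90.0 and 80.0% in HNKO mice. The exact permutation test gave p = 0.1 (two-sided), the smallest it can give with 3 mice against 3. They also overlapped without the 2 Kupfer nuclei of more than 10000 UMIs, where WT 2 was at 100%. With at least 50% own hashtags, no member kept this separation in Kupfer nuclei, where HNKO 3 had no nucleus left.

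Vsig4, the complement receptor through which Kupffer cells take up opsonised particles (chromosome X, 96247203 to 96293438, minus strand), placed 83.6% of its 558.9 UMIs in Kupfer nuclei. The level was 1559 CPM there, 74.2 in CD45+ 1, 16.9 in CD45+ 2, 2.89 in stellate, 3.02 in cholangiocyte and 1.88 CPM in hepatocyte nuclei, with 0 of 245 endothelial nuclei positive (up to 1.22%). It was detected in 70 of 80 Kupfer nuclei, 87.5%.

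Of the members, Vsig4 showed the largest fold between genotypes in Kupfer nuclei. It was at 581, 1068 and 1168 CPM in WT 1, 2 and 3, and at 1824, 2263 and 1426 CPM in HNKO 1, 2 and 3. Every HNKO mouse was above every WT mouse, with means of 939 ± 314 CPM (SD, n = 3) and 1838 ± 419 CPM (SD, n = 3). The log2 fold change was 0.88 (SE 0.34, edgeR unadjusted p = 0.0224, FDR 0.62), which did not pass. Vsig4 and Mertk were the 2 of 7 members tested in which the groups did not overlap in this direction in Kupfer nuclei, a separation that 5.96% of the 705 genes tested there showed.

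The separation of Vsig4 rests on 1 nucleus. In WT 2 a single Kupfer nucleus held 14439 of 31825 UMIs, with 2 UMIs of Vsig4, none of Clec4f or Timd4 and 293 of hepatocyte markers (20292 CPM). One HNKO 3 nucleus, with 11451 UMIs, was also above 10000 UMIs and had 1 UMI of Vsig4. Without both, an alternative chosen after seeing the data, Vsig4 was at 581, 1841 and 1168 CPM in WT mice and 1824, 2263 and 1612 CPM in HNKO mice, which overlapped. Vsig4 then had a log2 fold change of 0.72 (SE 0.32, edgeR unadjusted p = 0.0355, FDR 0.995). No member separated the groups in this direction then, against 2.84% of the 705 genes. Summed hepatocyte markers in Kupfer nuclei were at 3678, 10401 and 2290 CPM in WT mice and 2384, 1913 and 2724 CPM in HNKO mice, and WT 2 was at 2186 CPM without that nucleus. Their part in the Vsig4 values was not tested.

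Using only nuclei whose own hashtag was the largest, an alternative chosen after seeing the data, left the Vsig4 value at 0.88 (SE 0.34, edgeR FDR 0.89). The share of nuclei with a UMI overlapped, at 66.7, 100 and 75.0% in WT mice and 82.8, 80.0 and 100% in HNKO mice.

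Timd4, the phosphatidylserine receptor of long-resident Kupffer cells (chromosome 11, 46810800 to 46844332, plus strand), was the member most confined to the Kupfer name by UMIs, with 92.6% of 231 UMIs there. Its level was 715 CPM in Kupfer and 10.6 CPM in CD45+ 1 nuclei, and 3 of 105 CD45+ 1 nuclei held a UMI. Hepatocytes were at 0.227% of nuclei. No UMI was found in 47 CD45+ 2, 25 CD45+ 3, 245 endothelial or 110 cholangiocyte nuclei.

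The Timd4 level in Kupfer nuclei was 435, 974 and 1168 CPM in WT 1, 2 and 3, and 708, 728 and 628 CPM in HNKO 1, 2 and 3. WT 1 was below all HNKO mice and the other WT mice were above them. Without the 2 nuclei of more than 10000 UMIs WT 2 was at 1783 CPM and the others in the same order. Timd4 had a log2 fold change of -0.38 (SE 0.37, edgeR FDR 0.94). The share of positive Kupfer nuclei was 83.3, 83.3 and 100% in WT mice (4 to 6 nuclei each) and 65.5, 70.0 and 80.0% in HNKO mice, with every HNKO mouse below every WT mouse (exact permutation p = 0.1, the smallest possible). Timd4, Cd5l and Adgre1 were the 3 of 7 members below in this way, beside 8.09% of the 705 genes, and none of the 3 was when nuclei were thinned. For Timd4, after thinning to 1000 UMIs the groups overlapped, at 38.3, 66.7 and 73.8% in WT mice and 40.7, 37.0 and 43.2% in HNKO mice. Of the HNKO Kupfer nuclei, 46 of 64 held Timd4.

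Cd5l, a secreted scavenger-receptor cysteine-rich protein that acts on lipid metabolism and apoptosis of macrophages (chromosome 3, 87357881 to 87371073, plus strand), was detected in 77 of 80 Kupfer nuclei, 96.3%. The level was 1476 CPM in Kupfer, 76.9 in CD45+ 1, 11.6 in stellate, 3.17 in endothelial and 2.56 CPM in hepatocyte nuclei, and 79.1% of 559 UMIs were in Kupfer nuclei. Hepatocytes held a UMI in 1.47% of nuclei.

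Cd5l in Kupfer nuclei was at 1210, 1006 and 623 CPM in WT 1, 2 and 3, and at 1193, 1805 and 1990 CPM in HNKO 1, 2 and 3. HNKO 1 lay within the WT range and the other HNKO mice lay above it. For Cd5l the log2 fold change was 0.71 (SE 0.33, edgeR FDR 0.94). Nearly all nuclei were positive in both groups, so the positive share carried little, and its direction turned when nuclei were thinned to 1000 UMIs (10.4 percentage points higher in HNKO mice, against 5.82 lower at full depth).

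Marco, a scavenger receptor for bacteria and particles (chromosome 1, 120474538 to 120505024, minus strand), was low in these nuclei, with 34 UMIs in all and 8 of 80 Kupfer nuclei positive. It was at 339, 0 and 0 CPM in the Kupfer nuclei of WT 1, 2 and 3 and at 136, 0 and 42.6 CPM in HNKO 1, 2 and 3. The WT value came from a single mouse. Marco did not pass the filter on low counts in any of the 5 comparisons.

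The resident genes were found together in the same nuclei. Of Clec4f, Vsig4, Timd4 and Cd5l, all 4 were detected in 47 of 80 Kupfer nuclei, 3 in 26, and 2 in 7, and no Kupfer nucleus had fewer. In CD45+ 1, 85 of 105 nuclei had none, 11 had 1, 7 had 2 and 2 had 3. Among 4410 hepatocyte nuclei 168 had 1 of them and 1 nucleus, of HNKO 3, had all 4. In the WT mice 9 of 16 Kupfer nuclei had all 4 genes and in the HNKO mice 38 of 64. The clusters were made from the same genes, so this separation describes the names.

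**Figure D2:**
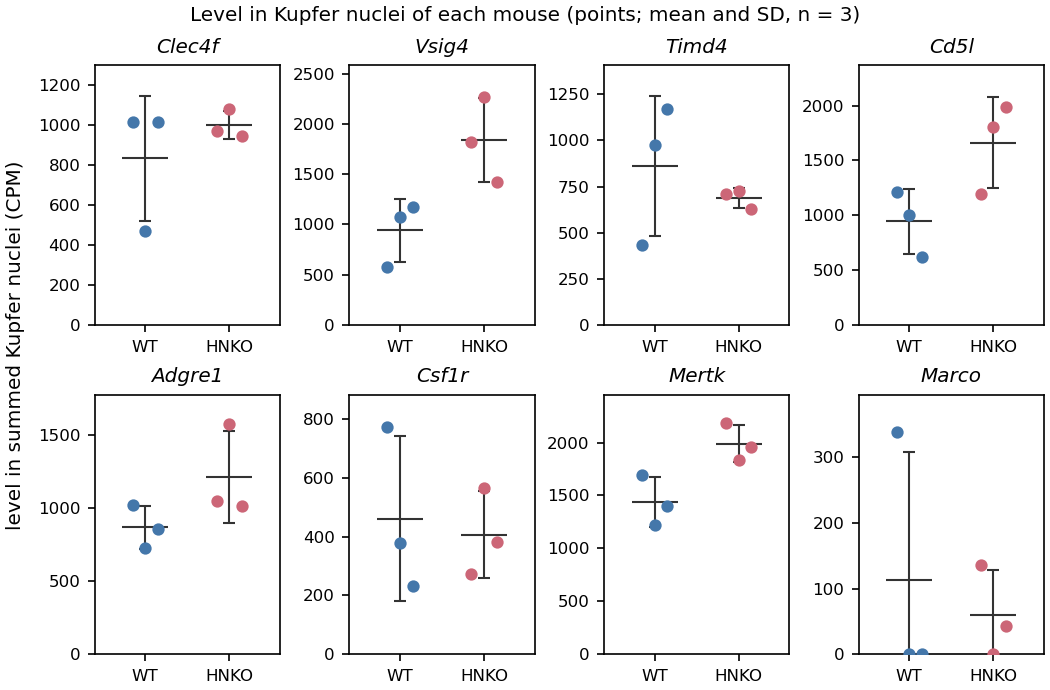
Each panel shows 1 gene's level (CPM, linear axis from 0) in the summed Kupfer nuclei of each mouse, WT in blue and HNKO in red, with the mean as a long bar and the SD as whiskers (n = 3). The HNKO points lie above all WT points for Vsig4 and Mertk, a separation that ended for both without the 2 nuclei of more than 10000 UMIs, and the groups overlap in the other 6 panels.

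Adgre1 encodes F4/80, the adhesion receptor used to recognise mouse macrophages (chromosome 17, 57358691 to 57483527, plus strand). It was found in 69 of 80 Kupfer nuclei (1056 CPM) and in 37 of 105 CD45+ 1 nuclei (292 CPM), which held 63.8% and 22.2% of its UMIs. Only 10 of the 37 also held a resident gene. It was near background elsewhere, with 1 of 47 CD45+ 2, 1 of 25 CD45+ 3, 6 of 245 endothelial and 49 of 4410 hepatocyte nuclei positive.

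In Kupfer nuclei Adgre1 was at 1016, 724 and 857 CPM in WT 1, 2 and 3, and at 1048, 1569.6 and 1011 CPM in HNKO 1, 2 and 3. HNKO 2 was the highest and HNKO 3 fell just below WT 1, so the groups overlapped. This gave a log2 fold change of 0.41 (SE 0.29, edgeR FDR 0.94). All WT Kupfer nuclei were positive and 82.8, 90.0 and 80.0% of HNKO Kupfer nuclei, but the means differed by -0.013 percentage points once nuclei were thinned to 1000 UMIs. In CD45+ 1 nuclei, Adgre1 was at 299, 347 and 94.6 CPM in WT mice and 333, 373 and 188 CPM in HNKO mice, which overlapped.

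Csf1r, the receptor for CSF1 and IL-34 on which Kupffer cells depend for survival (chromosome 18, 61100598 to 61132149, plus strand), was found in 54 of 80 Kupfer nuclei (387 CPM) and 31 of 105 CD45+ 1 nuclei (127 CPM). In Kupfer nuclei it was at 774, 377 and 234 CPM in WT 1, 2 and 3, and at 272, 566 and 383 CPM in HNKO 1, 2 and 3. The groups overlapped fully, and the WT range was wider than the HNKO range. Its log2 fold change was -0.34 (SE 0.44, edgeR FDR 0.97) and turned to 0.14 without WT 1.

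Cholangiocytes, the epithelial cells of bile ducts, also held Csf1r. A UMI was present in 20 of 110 cholangiocyte nuclei (18.2%, Clopper-Pearson 95% interval 11.5 to 26.7%), 31 UMIs in all and 46.8 CPM, against 26 of 4410 hepatocyte nuclei (0.59%). Both cholangiocyte names contributed, 12 of 76 nuclei and 8 of 34. The median depth of cholangiocyte nuclei was 4525.5 UMIs, close to that of hepatocytes.

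All 20 were nuclei of HNKO mice, and WT mice had only 2 cholangiocyte nuclei, so genotypes cannot be compared. The 20 nuclei held 0 UMIs of Clec4f, Vsig4, Timd4, Cd5l, Ptprc, C1qa, C1qb, C1qc and Tyrobp, and 0.5 UMI of Adgre1. They held Pkhd1, the fibrocystin gene of ductal epithelium, at 5643 CPM, close to 5766 CPM in the other cholangiocyte nuclei. Csf1r overlaps the last part of Hmgxb3 on the other strand (641 UMIs in the table), and how UMIs in the shared stretch were assigned was not tested.

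The ligand genes of CSF1R were read by cell type name, since positions of cells were not measured. Il34 was at 403 CPM in stellate and 140 CPM in cholangiocyte nuclei, and at 3.34 CPM or less in Kupfer, CD45+, endothelial and hepatocyte nuclei. Csf1 was at 75.1 CPM in stellate, 47.5 in endothelial and 40.7 CPM in cholangiocyte nuclei.

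Mertk is the receptor tyrosine kinase that macrophages use to engulf apoptotic cells (chromosome 2, 128698956 to 128802894, plus strand). It was the member with the widest spread over cell types. All 80 Kupfer nuclei held it (1899 CPM), with 208 of 245 endothelial (843 CPM), 59 of 105 CD45+ 1 (768 CPM), 86 of 171 stellate (234 CPM), 9 of 25 CD45+ 3 (138 CPM), 14 of 47 CD45+ 2 (101 CPM), 1472 of 4410 hepatocyte (88.0 CPM) and 11 of 110 cholangiocyte nuclei (21.1 CPM). Because hepatocytes were so many, 58.6% of 4507 Mertk UMIs were in them and 12.6% in Kupfer nuclei. Mertk overlaps the antisense gene Gm14011, which had 3 UMIs in the table.

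The order of Mertk levels was clear only in part. In Kupfer nuclei the 6 mice ranged from 1222 to 2182 CPM, above the 647 to 1145 CPM of endothelial nuclei. Endothelial and CD45+ 1 nuclei (224 to 1123 CPM) overlapped, as did CD45+ 1 and stellate nuclei (70.6 to 306 CPM), and stellate and hepatocyte nuclei (59.5 to 106 CPM). Of the endothelial markers, 7 of 8 were found in Kupfer nuclei at a summed 511 CPM, with 220 to 677 CPM in WT and 161 to 893 CPM in HNKO mice, and Clec4g was at 0.

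Within the hepatocytes, Mertk was read by zone of the lobule, with no test, since the names were made from the same genes. Nuclei of pericentral names were at 135, 179 and 189 CPM in WT 1, 2 and 3, and those of periportal names at 46.9, 75.7 and 79.4 CPM. HNKO 2 had 202 against 83.2 CPM, while HNKO 1 and HNKO 3 had only 4 and 1 periportal nuclei. The pericentral level was above the periportal level in 4 of 4 mice with at least 10 nuclei of each. Thinned to 1000 UMIs, Mertk was in 17.9, 12.1 and 11.7% of pericentral nuclei of WT 1, 2 and 3. Periportal nuclei of the same mice held it in 4.19, 5.99 and 6.01%. In HNKO 2 the shares were 15.7 and 6.46%.

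**Figure D3:**
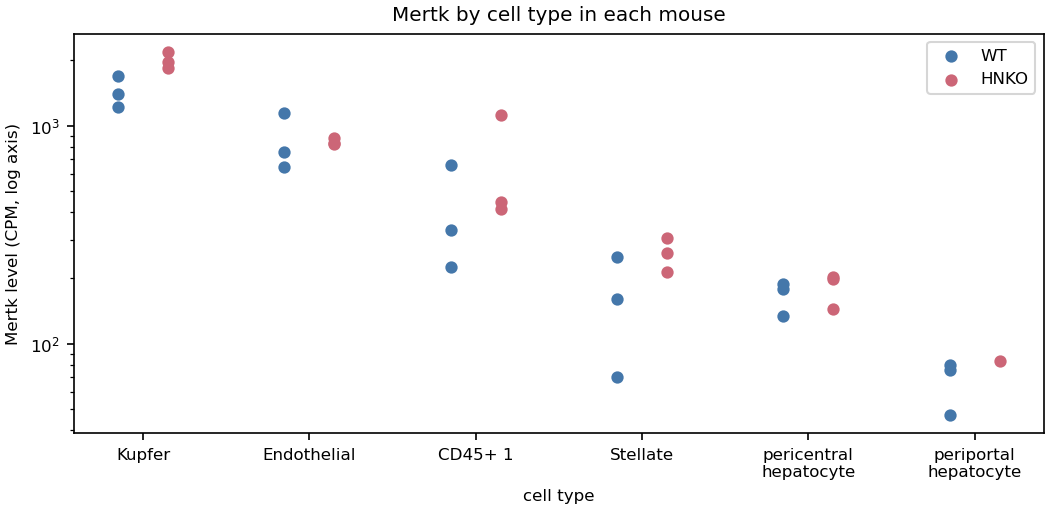
Each point is the Mertk level (CPM, log axis) of 1 mouse in the summed nuclei of a cell type, WT in blue and HNKO in red, with periportal points only for the 4 mice with at least 10 such nuclei. Kupfer points lie above all endothelial points, and the 4 periportal points lie at 46.9 to 83.2 CPM.

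Between genotypes, Mertk in Kupfer nuclei was at 1694, 1222 and 1402 CPM in WT 1, 2 and 3, and at 2182, 1832 and 1958 CPM in HNKO 1, 2 and 3. The groups did not overlap, with means of 1439 ± 238 and 1991 ± 177 CPM (SD, n = 3 each). The log2 fold change was 0.43 (SE 0.25, edgeR FDR 0.94). Without the 2 nuclei of more than 10000 UMIs WT 2 was at 1834 CPM, level with HNKO 2 at 1832, so the groups overlapped, and the log2 fold change was 0.36 (SE 0.27, edgeR FDR 0.995). In endothelial nuclei it was at 1145, 647 and 762 CPM in WT mice and 825, 881 and 836 CPM in HNKO mice, which overlapped, with a log2 fold change of -0.01 (SE 0.23, edgeR FDR 1.0). That fit called 0 of 2743 genes, and 4.92% of them had every HNKO mouse above every WT mouse.

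In hepatocyte nuclei, 4 members were tested. The log2 fold change was -0.12 for Mertk (SE 0.24), -0.36 for Clec4f (SE 0.37), 0.26 for Cd5l (SE 0.41) and 0.45 for Adgre1 (SE 0.45), with edgeR FDR of 0.86 to 0.94. None of the 4 separated the groups with HNKO above WT, which 10.2% of 11810 genes did. The Clec4f, Cd5l and Adgre1 values rest on 49 to 65 positive hepatocyte nuclei of 4410.

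Gpnmb, a transmembrane glycoprotein of lysosome-rich macrophages (chromosome 6, 49036546 to 49070929, plus strand), was the member set apart from the Kupfer name. No Kupfer nucleus held it (0 of 80, Clopper-Pearson 95% interval up to 4.51%). CD45+ 1 held 14 positive nuclei of 105 (13.3%, Clopper-Pearson 95% interval 7.49 to 21.4%) and 60 UMIs, 78.1% of all. One CD45+ 3 nucleus of HNKO 1 held 7 UMIs. In hepatocytes 5 of 4410 nuclei (0.113%) held a UMI, and endothelial and CD45+ 2 nuclei held none.

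The 14 nuclei held 1 to 14 UMIs each, with a median of 3, and 10 held at least 2. They came from WT 2 (1 of 5 CD45+ 1 nuclei), HNKO 1 (7 of 52), HNKO 2 (1 of 14) and HNKO 3 (5 of 25), with 0 of 5 in WT 1 and 0 of 4 in WT 3. In level this was 0, 208 and 0 CPM in WT mice and 150, 107 and 271 CPM in HNKO mice. The WT 2 value, from 1 nucleus, lay between the HNKO values, so the share of CD45+ 1 nuclei with Gpnmb did not separate the genotypes (exact permutation p = 0.4). Summed over immune nuclei (Kupfer and the 3 CD45+ names), Gpnmb was at 0, 40.2 and 0 CPM in WT mice and 92.9, 43.1 and 89.3 CPM in HNKO mice, and over all nuclei at 0.265, 0.838 and 0.638 CPM and at 4.64, 1.28 and 3.91 CPM. Every HNKO mouse was above every WT mouse in both (exact permutation p = 0.1, the smallest possible). However, the immune WT 2 and HNKO 2 values each come from 1 nucleus. In that of HNKO 2, with 6 Gpnmb UMIs, the own hashtag was 27.1% and not the largest. Among genes that passed the filter on low counts, 7.5% of 2439 separated in immune nuclei and 15.8% of 13070 over all nuclei. Gpnmb did not pass that filter. The immune groups overlapped without the 2 Kupfer nuclei of more than 10000 UMIs, with WT 2 at 49.8 CPM. The mouse's own hashtag was the largest in 12 of the 14 nuclei and made up at least 50% in 6.

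General macrophage genes were found in a larger share of Gpnmb-positive than of other CD45+ 1 nuclei, which is a description with no test. Mertk was in 14 of 14 against 45 of 91 other CD45+ 1 nuclei, Adgre1 in 11 of 14 against 26 of 91 and Csf1r in 9 of 14 against 22 of 91. The lysosomal proteases Lgmn (12 of 14 against 38 of 91) and Ctsb (11 of 14 against 39 of 91) and the lipase Lpl (6 of 14 against 9 of 91) were also often present, and Lgals3 was in 6 of 14 against 15 of 91. Cd9 (2 of 14 against 14 of 91), Spp1 (1 of 14 against 6 of 91) and Trem2 (1 of 14 against 5 of 91) were about as frequent in both. The remaining genes of the lipid-associated programme were not compared between these nuclei. A gene of Clec4f, Vsig4, Timd4 and Cd5l was in 2 of 14 against 18 of 91, so resident genes were few in both. The dendritic genes Flt3 and Siglech were in 0 of 14, against 25 and 13 of 91, but Clec9a was in 3 of 14 against 31 of 91. The monocyte gene Ccr2 (2 of 14 against 27 of 91) and the gene Itgax (2 of 14 against 26 of 91) were also present in some. The positive nuclei were deeper (median 3609 against 2869 UMIs), and the part of depth in these shares was not tested.

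**Figure D4:**
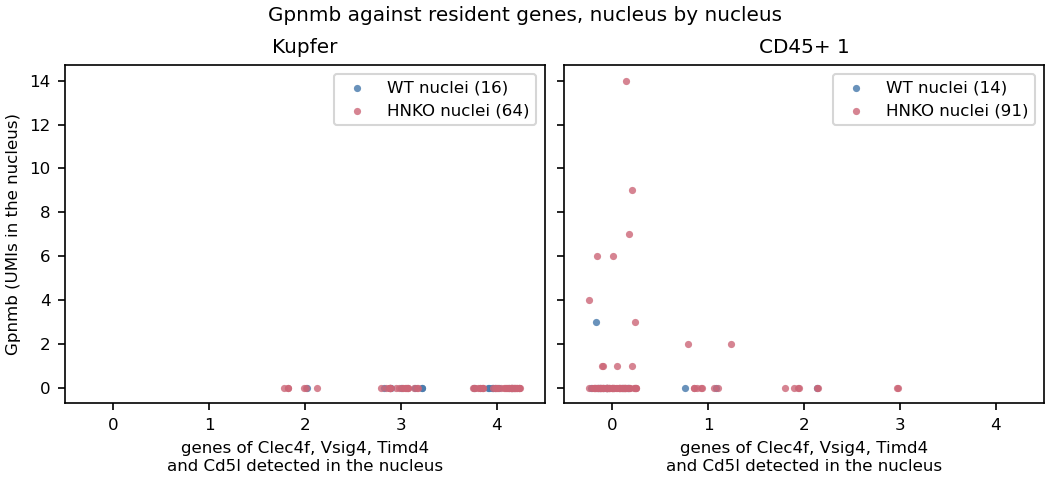
Each point is 1 nucleus, with Gpnmb UMIs (vertical axis) against the number of the genes Clec4f, Vsig4, Timd4 and Cd5l detected (horizontal axis, points shifted sideways at random for visibility), for 80 Kupfer nuclei and 105 CD45+ 1 nuclei. Kupfer nuclei have 2 to 4 resident genes and no Gpnmb. Of the CD45+ 1 nuclei, 2 of 14 with Gpnmb and 18 of 91 without it have a resident gene.

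Trem2, the lipid receptor of microglia and lipid-associated macrophages that signals through Tyrobp (chromosome 17, 48346401 to 48354147, plus strand), was nearly undetected, with 12 UMIs in 11 of 5193 nuclei. Of these, 7 UMIs were in 6 CD45+ 1 nuclei, 4 of HNKO 1 and 2 of HNKO 3. Kupfer nuclei of WT 1 and HNKO 2 held 1 UMI each, and both were also positive for all of Clec4f, Vsig4, Timd4 and Cd5l. A single nucleus, of HNKO 3, held both Trem2 and Gpnmb. Neither Gpnmb nor Trem2 passed the filter on low counts in any of the 5 comparisons.

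Over all nuclei of a mouse, the members add up the number of macrophages and the RNA in each, and fewer cells of a type cannot be told apart from less RNA per cell in such sums. Kupfer nuclei were 0.954, 0.771 and 0.552% of nuclei in WT 1, 2 and 3, and 2.73, 1.05 and 2.38% in HNKO 1, 2 and 3. CD45+ 1 nuclei were 0.795, 0.643 and 0.552% in WT mice and 4.89, 1.47 and 2.38% in HNKO mice. Where the own hashtag was the largest, Kupfer nuclei were 2.73, 1.08 and 1.52% in HNKO mice and CD45+ 1 nuclei 4.89, 1.29 and 1.62%. With at least 50% own hashtags, Kupfer nuclei were 0.528, 0.295 and 0.439% in WT mice and 2.65, 0.124 and 0% in HNKO mice, so that the order of the groups rests on the hashtag rule.

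The share of all nuclei with a UMI was above every WT mouse in every HNKO mouse for Clec4f, Timd4, Cd5l and Adgre1, each with exact permutation p = 0.1, the smallest possible. These were 4 of 7 members tested, beside 37.3% of the 13070 genes, so the separation was common among all genes. Clec4f was in 2.07, 1.80 and 1.38% of nuclei in WT 1, 2 and 3 and in 4.33, 2.32 and 3.91% in HNKO 1, 2 and 3. Timd4 was in 0.954, 0.900 and 0.691% and in 2.16, 1.05 and 2.29%. HNKO 2 was the HNKO mouse nearest to WT for both. The Timd4 groups overlapped when thinned to 1000 UMIs, at 0.437, 0.578 and 0.490% in WT mice and 1.19, 0.489 and 1.09% in HNKO mice (exact permutation p = 0.3), and with at least 1.5 UMIs (exact permutation p = 0.4).

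Cd5l was in 2.38, 2.06 and 1.80% of all nuclei in WT mice and in 4.42, 2.63 and 4.19% in HNKO mice. Adgre1 was in 2.07, 2.19 and 1.24% and in 5.36, 2.74 and 4.10%. The other members overlapped. Vsig4 was in 3.18, 1.80 and 1.52% of nuclei in WT mice and in 3.67, 1.58 and 3.43% in HNKO mice, and Csf1r was in 1.91, 1.16 and 0.967% and in 4.52, 1.37 and 4.29%, with HNKO 2 inside the WT range for both. Mertk was in 31.2, 32.3 and 36.7% and in 36.2, 42.9 and 41.3%, which overlapped narrowly. Gpnmb was in 0.159, 0.257 and 0.414% and in 0.847, 0.316 and 0.667%.

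The count of 4 members depended on nuclei of doubtful hashtag and on depth. It stayed 4 where the own hashtag was the largest (36.8% of all genes) and was 1 (Mertk) with at least 50% own hashtags (37.1%). Thinned to 1000 UMIs it was 7 of 10 (Clec4f, Vsig4, Cd5l, Adgre1, Mertk, Gpnmb and Trem2) beside 18.6% of the 13070 genes tested. With at least 1.5 UMIs it was 5 (Clec4f, Vsig4, Cd5l, Adgre1 and Mertk) beside 23.5%. Without HNKO 2 it was 8, beside 47.8%. The 7 and the 8 both hold Gpnmb and Trem2, which did not pass the filter on low counts and are not among the 13070 genes. Thinned Trem2 shares were 0.0238, 0 and 0.0207% in WT mice and 0.113, 0.0474 and 0.138% in HNKO mice. Median depth of hepatocyte nuclei was 3572 to 4162 UMIs in WT mice and 4800 to 5786 UMIs in HNKO mice, and hepatocytes gave 51 of the 146 Clec4f-positive nuclei.

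**Figure D5:**
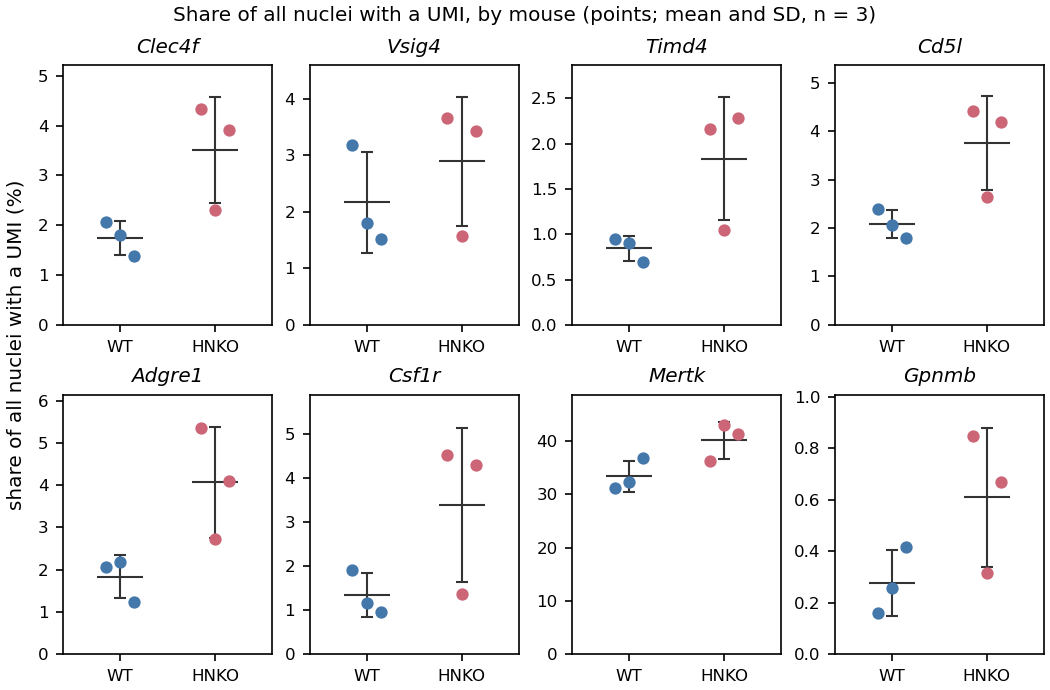
Each panel shows the share of a mouse's nuclei with a UMI of 1 gene (percent, linear axis from 0), WT in blue and HNKO in red, with the mean as a long bar and the SD as whiskers (n = 3). HNKO points lie above all WT points for Clec4f, Timd4, Cd5l and Adgre1, and HNKO 2 is the lowest HNKO mouse except for Mertk, where it is the highest.

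By summed counts over all nuclei, 7 members could be tested and each had a positive log2 fold change. It was 0.96 for Clec4f (SE 0.34), 1.34 for Vsig4 (SE 0.34), 0.61 for Timd4 (SE 0.46) and 1.26 for Cd5l (SE 0.37). It was 1.30 for Adgre1 (SE 0.38), 0.93 for Csf1r (SE 0.46) and 0.17 for Mertk (SE 0.17). Clec4f, Vsig4, Cd5l and Adgre1 had unadjusted p of 0.0233, 0.00407, 0.00993 and 0.00921, but their FDR by edgeR was 0.54, and no member passed. The median over the 7 members was 0.96, beside 0.02 over all 13070 genes tested.

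In levels, 5 of the 7 members had every HNKO mouse above every WT mouse (Clec4f, Vsig4, Cd5l, Adgre1 and Mertk), beside 15.8% of the 13070 genes. Vsig4 was at 7.44, 10.1 and 5.25 CPM in WT mice and 28.5, 14.6 and 23.1 CPM in HNKO mice. Adgre1 was at 8.53, 9.09 and 3.43 CPM and at 24.01, 14.6 and 20.1 CPM. Cd5l was at 9.56, 10.3 and 4.04 CPM and at 19.97, 14.0 and 33.6 CPM. HNKO 3 was highest for Cd5l and HNKO 1 for Vsig4 and Adgre1.

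No gene passed in any of the 5 comparisons by edgeR: 0% of 13070 genes over all nuclei, of 2439 in immune, of 705 in Kupfer, of 2743 in endothelial and of 11810 in hepatocyte nuclei. Unadjusted p under 0.05 was met by 1113, 157, 39, 104 and 698 genes, and DESeq2 called 63, 0, 0, 1 and 21, none a member. In immune nuclei, Vsig4 had the largest log2 fold change of the members, 0.73 (SE 0.32, edgeR FDR 0.77), and Timd4 the lowest, -0.55 (SE 0.36, edgeR FDR 0.85). Vsig4, Adgre1 and Mertk were the 3 of 7 members in which the groups did not overlap there, beside 7.5% of the 2439 genes. Without the 2 Kupfer nuclei of more than 10000 UMIs these were Vsig4 and Adgre1, beside 6.85%. By the share of immune nuclei with a UMI, Clec4f was the 1 of 7 members that separated in this direction, beside 9.1% of the 2439 genes.

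The other genes of the Kupffer programme were read from lists of 12 identity and transcription factor genes, 9 iron and erythrocyte genes, 15 scavenger and clearance receptors, 7 complement components, 15 monocyte genes, 20 lipid-associated and repair genes and 10 partners of CSF1R and TREM2. None of the genes of any list passed in any of the 5 edgeR comparisons, with 0 higher and 0 lower. Over all nuclei, where the median log2 fold change of all genes was 0.02 and 51.7% of genes were above 0, 6 of 10 identity genes tested were above 0 (median 0.14), 5 of 8 iron genes (0.12), 10 of 12 scavenger receptors (0.46), 5 of 5 complement components (1.30), 5 of 7 monocyte genes (0.49) and 6 of 7 partners (0.69). In Kupfer nuclei the median of all genes was -0.01 and 49.1% were above 0. There 1 of 5 identity genes was above 0 (median -0.39), 2 of 3 iron genes (0.62) and 5 of 5 scavenger receptors (0.49). The count was 4 of 5 for lipid-associated genes (0.34), 2 of 3 for partners (0.16), and 0 of 1 each for complement and monocyte genes. Of identity genes 9 of 12 were higher in Kupfer than in CD45+ 1 nuclei, as were 7 of 9 iron genes and 5 of 7 complement genes, and 6 of 15 monocyte genes. This describes the names and was not tested.

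Identity genes were led in Kupfer nuclei by Zeb2 (4501 CPM) and Maf (498 CPM), transcription factors that maintain macrophage identity, and by Rxra (331 CPM). They were not particular to these nuclei. Maf was higher in endothelial nuclei (971 CPM), and Zeb2 was at 3648 CPM in stellate and Rxra at 266 CPM in hepatocyte nuclei. Nr1h3, which encodes the liver X receptor alpha of Kupffer cells, was at 299 CPM in Kupfer and 61.0 CPM in CD45+ 1 nuclei, and Spic, a factor of iron-recycling macrophages, at 66.8 and 15.9 CPM. The factor Rbpj, which acts downstream of Notch, went the other way, with 88.6 and 687 CPM.

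The iron exporter Slc40a1 was at 1857 CPM in Kupfer and 220 CPM in CD45+ 1 nuclei. The haemoglobin-haptoglobin receptor Cd163 was at 581 and 10.6 CPM. In Kupfer nuclei Cd163 was at 145, 157 and 1090 CPM in WT 1, 2 and 3 and at 1096, 539 and 202 CPM in HNKO 1, 2 and 3, so that single mice of both genotypes reached the same level and the groups overlapped.

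Among scavenger receptors Mrc1 and Msr1 were at 1274 and 1015 CPM in Kupfer nuclei, and at 1393 and 286 CPM in endothelial nuclei. The collectin Colec12 had the largest log2 fold change among the 3 most abundant genes of each list, 2.40 in Kupfer nuclei (SE 0.64, edgeR FDR 0.42), with 0, 126 and 312 CPM in WT mice and 893, 458 and 702 CPM in HNKO mice. The groups did not overlap, but the gene did not pass. Without the 2 nuclei of more than 10000 UMIs it was at 0, 0 and 312 CPM in WT mice and 893, 458 and 509 CPM in HNKO mice. Colec12 was at 566 CPM in hepatocytes, whose markers were also found in these nuclei, as given above. Without the same 2 nuclei these summed markers were at 3678, 2186 and 2290 CPM in WT mice and 2384, 1913 and 1902 CPM in HNKO mice. Their part in the Colec12 values was not tested.

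Of the monocyte list, Ccr2 and Itgax were at 138 and 111 CPM in CD45+ 1 nuclei and at 3.34 CPM each in Kupfer nuclei. The list was not uniform, as 6 of its 15 genes were higher in Kupfer nuclei. Among these were Cd44 (932 against 817 CPM) and Itgal (214 against 143 CPM). Of the lipid-associated list, Lgmn was at 1345 CPM in Kupfer and 546 CPM in CD45+ 1 nuclei and Ctsb at 778 and 355 CPM, whereas Lgals3, a lectin of phagocytes, was at 76.8 and 146 CPM. Over all nuclei 16 of these 20 genes could be tested and 12 had a log2 fold change above 0, with a median of 0.73, beside 51.7% and 0.02 for all genes. Spp1, the gene with a cholangiocyte level of 1196 CPM, was one of the 8 with unadjusted p under 0.05 by edgeR.

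Other abundant genes of the lists in Kupfer nuclei were the prostaglandin-degrading enzyme Hpgd (739.6 CPM), the complement components C6 (989 CPM), C1qb (254 CPM) and C1qc (204 CPM), and the hyaluronan receptor Cd44 (932 CPM) with the integrin Itgal (214 CPM). Fn1 (290.5 CPM) and Igf1 (798 CPM) were higher in hepatocytes, at 1723 and 1655 CPM. Of the signalling partners, the phosphatase Inpp5d was at 676 CPM, the protease Adam10, which sheds TREM2, at 491 CPM and the kinase Syk at 481 CPM.

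Over the 21 cluster names, the genes whose log2(CPM + 1) followed Clec4f most closely, among those with at least 50 UMIs, were Lilrb4a (Pearson's r = 0.91), C1qa (0.91), Slc15a3 (0.90), Cept1 (0.90) and Ddx60 (0.89). For Gpnmb they were Itgax (0.90), Myo5a (0.88), an unnamed gene with identifier ENSMUSG00000085786 (0.88), Bmp2k (0.81) and Slc4a7 (0.81). Clec4f and Vsig4 had r = 0.89, Timd4 and Cd5l 0.94, and Clec4f and Gpnmb 0.10. These are descriptions over clusters that share libraries and differ in depth. Most Gpnmb UMIs lay in CD45+ 1 (60) and CD45+ 3 (7, in 1 nucleus), so its r rests mainly on these names. Within CD45+ 1, Itgax was in 2 of 14 Gpnmb-positive nuclei against 26 of 91 others.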

How the data were processed

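Nuclei of 6 livers were hashtagged, 4250 per mouse were sorted, and they were run as 2 RNA pools and 2 hashtag pools with 10x Genomics 3′ chemistry. The authors deposited estimated counts of UMIs per gene and nucleus, which they made with alevin on GRCm38, counting introns. The submitters' processing notes also list Cell Ranger 5.0.1. Of nonzero values, 10.1% were not whole to within 0.001. The authors also deposited hashtag counts, cell type names and the hashtag call that assigns each nucleus to a mouse. A matrix of corrected counts from the authors, a score, was not used. Mice were numbered by hashtag name.

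For each mouse and cell type the estimated counts were added up, rounded and tested with edgeR 4.0.16 in R 4.3.3 (filterByExpr, TMM, quasi-likelihood F test, genotype as the only term, two-sided, Benjamini-Hochberg FDR threshold 0.05). A mouse entered with at least 3 Kupfer, 5 immune or 10 endothelial or hepatocyte nuclei. The fit was tested on simulated data. Shares count nuclei with at least 0.5 estimated UMI and were compared by exact permutation tests over mice. Nuclei held 1349 to 44204 UMIs, and thinning drew 1000 UMIs per nucleus 20 times. Python 3.11.15, numpy 2.4.6, scipy 1.17.1, pandas 2.3.3 and matplotlib 3.10.9 were used. No doublet caller was run. Alternatives were RLE scaling, no filter, DESeq2 1.42.0, 1 mouse left out, at least 5 Kupfer nuclei per mouse, at least 1.5 UMIs, thinning, own hashtag at least 50% and, added after seeing the data, own hashtag the largest and Kupfer nuclei of more than 10000 UMIs left out. The share of all genes that separated after thinning was computed as the expected share.

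The members and lists were chosen with earlier results of these data known. The genes named were the members, the 3 genes of each list with the highest level in Kupfer nuclei, and the 5 genes most like Clec4f and Gpnmb over clusters. Nr1h3, Spic, Rbpj, Ccr2, Itgax, Lgals3, Spp1, Il34, Csf1, Pkhd1 Adgb and the genes of the Gpnmb-positive nuclei were named after their values were seen.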

Additional observations from a re-analysis of the deposited data

How the results depend on the processing

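No member passed the FDR threshold in any of the 5 comparisons under any alternative run. The count of genes called was 0 at the main setting in each, and rose without the filter on low counts to 84 over all nuclei, 14 in immune, 18 in Kupfer, 16 in endothelial and 35 in hepatocyte nuclei. Without the 2 Kupfer nuclei of more than 10000 UMIs, left out after seeing the data, 1 gene was called in Kupfer nuclei (Adgb, log2 fold change -1.51, SE 0.32, edgeR FDR 0.0308). DESeq2 called 63, 1 and 21 over all, endothelial and hepatocyte nuclei. With 1 mouse left out the count ranged from 0 to 90 over all nuclei and from 0 to 32 in hepatocytes, in both cases the higher value without HNKO 2.

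Members with every HNKO mouse above every WT mouse in the share of all nuclei numbered 4, then 7 thinned, 5 at 1.5 UMIs and 1 with at least 50% own hashtags. With 1 mouse left out they numbered 4 to 8 (8 without HNKO 2, beside 47.8% of the genes tested). The 7 and the 8 include Gpnmb and Trem2, which did not pass the filter on low counts. Of the 13070 genes tested, 37.3% separated in this way at the main setting, 18.6% thinned, 23.5% at 1.5 UMIs, 37.1% with 50% own hashtags and 40.3 to 52.0% with 1 mouse left out. In Kupfer nuclei the count was 1, beside 1.56% of the 705 genes. It became 0 at 1.5 UMIs (3.26%), 0 with 50% own hashtags (2.13%) and 0 without the 2 nuclei of more than 10000 UMIs (0.993%). With 1 mouse left out it ranged from 1 to 2 (2 without WT 2), beside 2.98 to 7.09% of genes (7.09% without WT 2). In immune nuclei the count was 1, beside 9.1% of the 2439 genes. It became 4 thinned (7.87%), 0 at 1.5 UMIs (8.53%) and 0 with 50% own hashtags (5.37%). With 1 mouse left out it ranged from 1 to 3 (3 without WT 1, WT 3 or HNKO 2, and 2 without WT 2). The share of genes was then 11.8 to 19.6%. Some of these counts, the 4 among them, held Marco, Gpnmb or Trem2, which did not pass the filter on low counts.

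Directions turned for the following values, given with the range over mice left out 1 at a time. In immune nuclei, log2 fold changes became -0.49 for Clec4f and -0.077 for Cd5l with 50% own hashtags, and ranged from -0.020 (without WT 2) to 0.37 for Clec4f and from -0.49 to 0.20 (without WT 1) for Csf1r. In Kupfer nuclei they became 0.087 for Timd4 and 0.078 for Csf1r without the filter, and ranged from -0.59 to 0.14 (without WT 1) for Csf1r. Mertk in endothelial nuclei became 0.14 without the filter and ranged from -0.18 to 0.25, above 0 without WT 1, HNKO 1 or HNKO 3 (0.25, 0.0081 and 0.020). In hepatocytes Mertk ranged from -0.32 to 0.032 (above 0 without HNKO 1) and Cd5l from -0.049 to 0.48 (below 0 without WT 3 and HNKO 3, -0.00043 and -0.049). Differences in share became -0.452 percentage points for Vsig4 over all nuclei with 50% own hashtags, -0.0543 for Marco over all nuclei at 1.5 UMIs, 7.14 for Marco in Kupfer nuclei with 50% own hashtags, 10.4 and 0.992 for Cd5l in Kupfer nuclei thinned and at 1.5 UMIs, and 0.667 for Trem2 in Kupfer nuclei thinned. With mice left out, Marco in Kupfer nuclei ranged from -9.40 to 7.26 (without WT 1) and Trem2 from -5.56 to 3.33 (without WT 1). In immune nuclei, differences in share with 50% own hashtags became -6.69 for Clec4f, -11.6 for Vsig4, -14.2 for Adgre1 and -1.34 for Trem2. There Cd5l became 4.88 thinned and 2.64 at 1.5 UMIs, Marco became -0.519 thinned and -2.01 at 1.5 UMIs, and where the own hashtag was the largest Adgre1 became -0.755 and Marco -0.159. With mice left out, the immune difference ranged from -5.04 to 4.05 for Cd5l (above 0 without WT 3), from -3.56 to 7.04 for Adgre1 (below 0 without WT 1, WT 2 or HNKO 1, at -3.56, -2.05 and -1.26), from -1.51 to 3.25 for Marco (below 0 without WT 2, WT 3 or HNKO 1, at -1.51, -1.51 and -0.357) and from -11.1 to 1.37 for Csf1r (above 0 without WT 1). The cause was not tested.

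Nuclei whose own hashtag was the largest, chosen after seeing the data, left every count of genes called and of members separated as it was at the main setting. Fits with 50% own hashtags could not be made for Kupfer or endothelial nuclei, which left too few mice, and values within each RNA pool were not run because barcodes name no pool. No paired analysis was possible because the replicate numbers in the labels number pools that each hold all 6 mice. Depth limits the WT mice most, with 4 to 6 Kupfer nuclei and 12839 to 31825 UMIs each.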
